A study of Rattus norvegicus with 9 samples.

Results

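Complement is a cascade of plasma proteases and binding proteins that marks surfaces for removal and can end in a pore through a membrane. The C1 complex, with its proteases C1r and C1s, starts the classical route, and the MASP proteases start the lectin route. Both routes cut C2 and lead to the cleavage of C3, the protein on which all routes meet. Host cells hold the cascade back with soluble regulators, such as the C1 inhibitor and clusterin, and with membrane regulators, such as CD55 and CD59. Most circulating complement comes from the liver, but cells of the joint, chondrocytes among them, also transcribe parts of it.

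The genes described here are complement components and regulators, chosen by symbol as the table rows named C3, C1r, C1s, C2, Masp1, Cd55, Cd59, Clu and Serping1. All 9 symbols matched 1 row each, out of 18924 genes in the table, and all 9 passed the filter on low counts. In the table C3 is ENSRNOG00000046834, C1r is ENSRNOG00000011796, C1s is ENSRNOG00000011971, C2 is ENSRNOG00000051235 and Masp1 is ENSRNOG00000001827. Cd55 is ENSRNOG00000003927, Cd59 is ENSRNOG00000042821, Clu is ENSRNOG00000016460 and Serping1 is ENSRNOG00000007457. RNA came from primary chondrocytes of rats of the SD strain, grown from cartilage in DMEM with 10% serum to passage 1 or 2, in 3 groups of 3 libraries, each taken after 24 h. RPTi cells received rat plasma with thrombin and an unnamed inhibitor, RPT cells received rat plasma with thrombin, and RP cells received rat plasma alone, so every group shared the plasma. Thrombin is the clotting protease that also acts on cells through protease-activated receptors. The question of the series is the action of thrombin on these cells, and its title points to MEK, Erk1/2 and Stat3 signalling. Neither doses nor numbers of animals are given. Libraries of 1 group are not stated to be separate animals or cultures, so the p-values reflect spread among these libraries alone, which may be technical. Plasma brings complement proteins of its own, and counts of chondrocyte RNA do not measure those proteins.

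Libraries held 31877265 to 43962783 counts, so that 1 count was worth 0.0227 to 0.0314 CPM (counts scaled to a common library size). All 8 chondrocyte markers passed the filter and were abundant, with the cartilage collagen gene Col2a1 at a mean of 41200 CPM in RPTi, 16200 CPM in RPT and 26060 CPM in RP. All 7 fibroblast and synovial lining markers passed it as well. Of these, Col1a1 had a mean of 12570 CPM in RPTi, 6570 CPM in RPT and 12040 CPM in RP. Col3a1 had 3383 CPM in RPTi, 2437 CPM in RPT and 3553 CPM in RP. Of 9 macrophage markers found, 4 passed the filter, and the summed level of the list was 25.4 to 29.5 CPM in RPTi, 45.3 to 46.8 CPM in RPT and 24.6 to 28.9 CPM in RP. It was therefore higher in RPT without overlap, mostly through Cd14, while Adgre1 and Aif1 had 10 and 3 counts over all 9 libraries and Ptprc had 15. The C1q chain genes C1qa, C1qb and C1qc, which macrophages transcribe, had 9, 4 and 1 counts over all 9 libraries. Of 6 hepatocyte markers found 3 passed the filter, and the list summed to 79.7 to 86.2 CPM in RPTi, 63.7 to 78.5 CPM in RPT and 67.04 to 75.7 CPM in RP. Nearly all of that was the transferrin gene Tf, at 74.3 CPM on average. Serpina1 averaged 1.68 CPM and rose with thrombin (log2 fold change 0.91, SE 0.22, adjusted p = 0.00794 by edgeR), Apoa1 averaged 0.257 CPM, and Alb, Apob and Fgb had 1, 1 and 2 counts over all 9 libraries. Of 5 endothelial and 5 blood cell or platelet markers found, 1 of each list passed the filter, and neither list exceeded 1.28 CPM in sum in any library.

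Promoter sequences are shown for the members that changed with thrombin and have an entry in the RefSeq table of the assembly GRCr8, a later build than the Rnor_6.0 used for the counts. Of the 9 members 4 matched, and C1s, C2, Cd59, Clu and Serping1 did not. Each window runs from 250 bases before the start site to 50 bases after it, 5′ to 3′ along the gene. The windows are chr9:2201290-2201589 (minus strand) for C3, chr4:159098763-159099062 (plus strand) for C1r, chr13:44438052-44438351 (minus strand) for Cd55 and chr11:90839472-90839771 (plus strand) for Masp1. Capitals mark matches, on either strand, to short forms of the motifs of C/EBP (TTNNGNAA), NF-kB (GGGNNTTCC), AP-1 (TGANTCA), STAT (TTCNNNGAA) and Sp1 (GGGCGG), where N is any base.
C3: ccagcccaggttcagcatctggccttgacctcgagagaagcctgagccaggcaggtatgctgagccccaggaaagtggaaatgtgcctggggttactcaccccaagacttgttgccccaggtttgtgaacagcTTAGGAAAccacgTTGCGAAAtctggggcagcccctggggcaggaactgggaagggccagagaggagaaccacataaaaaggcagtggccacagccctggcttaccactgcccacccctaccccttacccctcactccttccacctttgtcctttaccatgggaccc
C1r: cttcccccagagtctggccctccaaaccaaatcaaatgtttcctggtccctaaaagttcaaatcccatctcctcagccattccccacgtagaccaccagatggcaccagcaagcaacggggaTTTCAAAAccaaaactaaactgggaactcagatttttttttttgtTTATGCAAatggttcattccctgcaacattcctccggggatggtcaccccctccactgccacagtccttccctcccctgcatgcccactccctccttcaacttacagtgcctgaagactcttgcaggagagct
Cd55: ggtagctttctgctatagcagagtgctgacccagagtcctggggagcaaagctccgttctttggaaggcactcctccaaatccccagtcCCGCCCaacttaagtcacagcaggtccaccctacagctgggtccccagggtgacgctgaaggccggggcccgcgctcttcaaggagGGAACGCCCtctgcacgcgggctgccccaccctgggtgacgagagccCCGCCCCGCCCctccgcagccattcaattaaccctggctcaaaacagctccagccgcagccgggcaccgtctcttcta
Masp1: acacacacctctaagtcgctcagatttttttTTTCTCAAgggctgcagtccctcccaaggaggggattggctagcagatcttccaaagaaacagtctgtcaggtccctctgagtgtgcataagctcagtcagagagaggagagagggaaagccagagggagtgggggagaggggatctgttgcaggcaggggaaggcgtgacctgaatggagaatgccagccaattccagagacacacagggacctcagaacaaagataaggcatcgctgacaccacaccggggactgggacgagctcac

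The C3 promoter held 2 matches to the C/EBP form, TTAGGAAA at -117 to -110 and TTGCGAAA at -104 to -97 from the start site, of which the second matched on both strands. The C1r promoter also held 2, TTTCAAAA at -128 to -121 and TTATGCAA at -83 to -76, and the Masp1 promoter held 1, at -219 to -212. The Cd55 promoter held 1 match to the NF-kB form, GGAACGCCC at -75 to -67 as read on the gene's strand, and 3 matches to the Sp1 form, of which 2 overlapped by a base. The shares of all 33465 promoters of the same length with a match were 41.3% for the C/EBP form, 5.92% for NF-kB, 7.33% for AP-1, 8.87% for STAT and 33.1% for Sp1. No AP-1 or STAT form was found in these 4 windows. A match describes letters and is not a measured binding site.

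With thrombin, the central component C3, the C1 proteases C1r and C1s and the membrane regulator Cd55 rose. Masp1, which encodes a lectin-route protease, fell, and counts per gene do not tell its transcripts apart. C3 rose 79.0-fold, C1s 3.75-fold, C1r 1.92-fold and Cd55 1.89-fold, while Masp1 fell to 0.549 of its level in plasma alone. C2, Clu, Cd59 and Serping1 did not pass the test. The count was 4 of 9 members rising and 1 falling at an adjusted p below 0.05, where 13.6% of all 13856 tested genes rose and 15.2% fell (28.9% called in either direction). The members and the other lists were chosen with earlier results of these data known. Their shares beside all tested genes, here and below, are therefore description only. The median log2 fold change of the members was 0.12, and that of all tested genes lay at 0. In bulk RNA, a change in how many cells express a gene and a change in RNA per cell cannot be told apart. Markers of cell types moved with the same contrast. The summed macrophage markers were higher in RPT, mostly through Cd14 (40.3 ± 0.943 CPM in RPT and 21.4 ± 1.97 CPM in RP, SD, n = 3 each), Cd68 rose as well and Csf1r fell. Lyz2 lay lower in RPT than in RP without being called (log2 fold change -0.51, adjusted p = 0.255 by edgeR). Mrc1, Tyrobp, Ptprc, Adgre1 and Aif1, all below the filter, also had lower means in RPT than in RP. The macrophage markers thus did not move in 1 direction. All 8 chondrocyte markers fell with thrombin, and all 8 rose in RPTi against RPT. Of 7 fibroblast and synovial lining markers, thrombin lowered 4 and raised 1, Prg4, which averaged 48.4 ± 1.37 CPM in RPTi, 239.7 ± 18.2 CPM in RPT and 17.2 ± 1.37 CPM in RP, and in RPTi against RPT 3 rose and 3, Prg4 among them, fell. The part that these markers have in the changes of the complement genes was not tested. The same 5 members were called under each of the 18 alternative settings, and Cd59 was added when RPT replicate 3 was left out (log2 fold change -0.26, adjusted p = 0.0439 by edgeR).

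With the inhibitor added to thrombin, C3, C1r and C1s fell relative to thrombin alone, and the regulators Clu, Cd59 and Serping1 rose. No group received plasma with the inhibitor and no thrombin. An action of the inhibitor by itself therefore cannot be told apart from one on the response to thrombin. The regulator Cd55 lay lower without passing the test (log2 fold change -0.23, adjusted p = 0.348 by edgeR). C2 and Masp1 did not pass either. Of the calls, that of C1r was lost in 3 and that of Clu in 6 of 18 alternative settings. C3 fell to 0.649, C1s to 0.714 and C1r to 0.854 of their RPT levels, and Serping1 rose 1.52-fold, Cd59 1.35-fold and Clu 1.15-fold. Of all tested genes, 41.5% were called in this comparison (20.4% rose and 21.1% fell), against 6 of 9 members, so a call by itself was common. The members' median log2 fold change was -0.01, as was that of all tested genes. Without the normalization factors (library totals alone) 2359 genes rose and 3788 fell, against 2825 and 2920 with them.

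Set against plasma alone, cells with thrombin and inhibitor still had raised C3, C1r, C1s and Cd55 and lowered Masp1, and Serping1 was raised as well. In this comparison 5 of 9 members rose and 1 fell, with a median log2 fold change of 0.69, and C2, Clu and Cd59 did not pass. Of all tested genes 24.2% were called (11.9% rose and 12.3% fell), with a median log2 fold change of -0.01. Library totals alone gave 1318 rising and 2280 falling genes, against 1647 and 1705. The 3 comparisons share libraries, so they are not independent of each other.

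**Figure D1:**
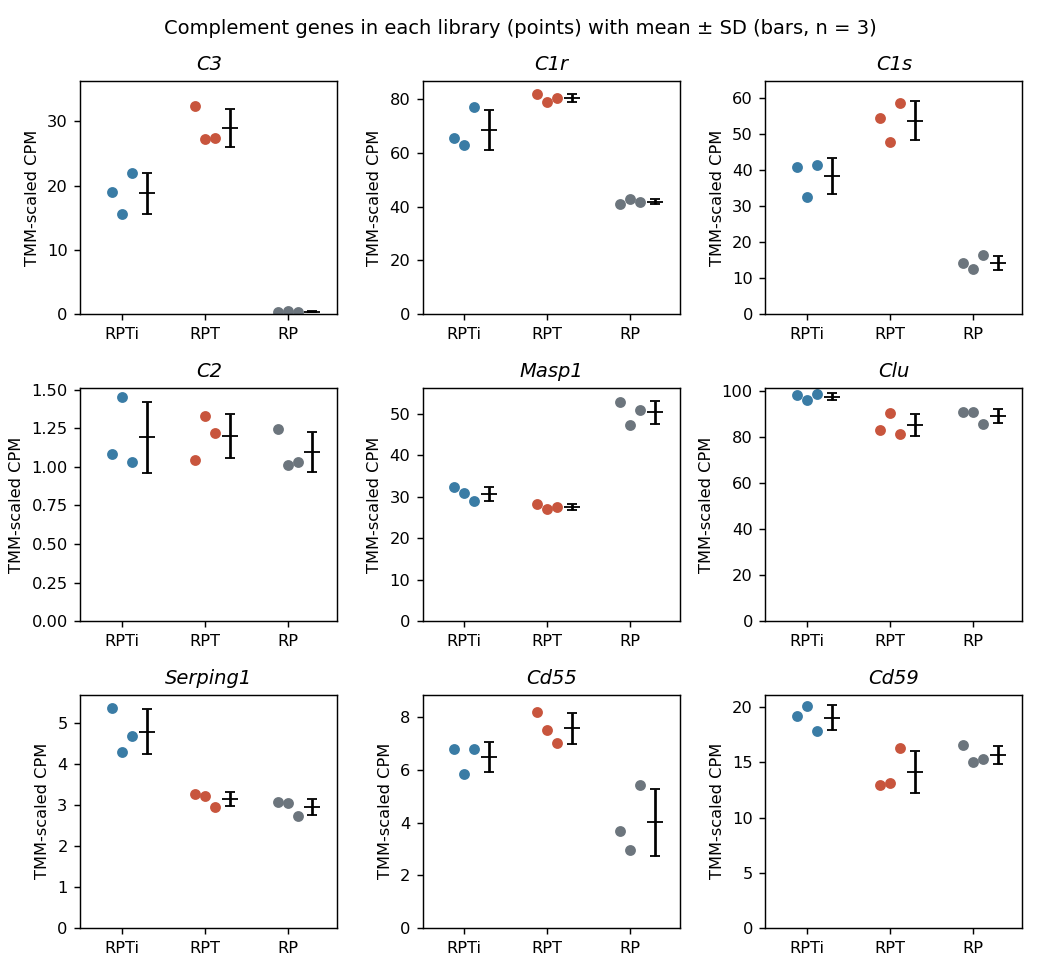
TMM-scaled CPM (y axis, from 0) of the 9 complement genes in RPTi, RPT and RP. Points are libraries and bars are the mean ± SD (n = 3). C3 sits between 15.5 and 32.4 CPM in the 6 libraries with thrombin and below 0.5 CPM in the 3 with plasma alone, and Masp1 is highest in RP.

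C3 had 19.1, 15.5 and 21.9 CPM in the RPTi libraries, 32.4, 27.2 and 27.4 CPM in the RPT libraries and 0.294, 0.447 and 0.370 CPM in the RP libraries. All 3 groups were separate, and the lowest RPTi library was far above the highest RP library. In raw counts this was 685, 481 and 785 reads in RPTi, 1240, 879 and 900 in RPT and only 13, 15 and 14 in RP, so the base of the ratio rests on few reads. The log2 fold change was 6.30 (SE 0.19, adjusted p = 4.17e-10 by edgeR) for RPT against RP, which ranked 4 of 13856 tested genes from the top. For RPTi against RPT it was -0.62 (SE 0.12, adjusted p = 0.00124 by edgeR), and for RPTi against RP 5.68 (SE 0.19, adjusted p = 2.23e-09 by edgeR), rank 3 from the top. On log2(FPKM + 1) the change of RPT against RP was 2.64, since a pseudocount of 1 exceeds the RP level.

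C1s, the protease of the C1 complex that cuts C4 and C2, had 41.0, 32.6 and 41.4 CPM in RPTi, 54.6, 48.0 and 58.7 CPM in RPT and 14.2, 12.5 and 16.4 CPM in RP. The groups did not overlap. RPT against RP gave a log2 fold change of 1.90 (SE 0.12, adjusted p = 2.74e-07 by edgeR) and RPTi against RPT gave -0.49 (SE 0.12, adjusted p = 0.00448 by edgeR). For RPTi against RP it was 1.42 (SE 0.12, adjusted p = 3.92e-06 by edgeR). The reference gene table also lists a C1s pseudogene, and how the authors' counting would split reads between near-identical copies is not known.

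C1r, which activates C1s, had 65.7, 63.0 and 77.0 CPM in RPTi, 81.8, 78.8 and 80.4 CPM in RPT and 40.9, 42.9 and 41.7 CPM in RP. RPT and RP lay far apart, while the highest RPTi library came close to the lowest RPT library. The log2 fold change was 0.94 (SE 0.08, adjusted p = 2.09e-06 by edgeR) for RPT against RP and 0.71 (SE 0.08, adjusted p = 2.66e-05 by edgeR) for RPTi against RP. For RPTi against RPT it was -0.23 (SE 0.08, adjusted p = 0.0292 by edgeR). That last call was lost without RPT replicate 1 (-0.22, adjusted p = 0.0834 by edgeR), RPTi replicate 1 (-0.20, adjusted p = 0.112) or RPTi replicate 2 (-0.17, adjusted p = 0.127).

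Between both C1 proteases, the fold change with thrombin was the higher one for C1s. Per length, the FPKM ratio of C1s to C1r was 0.573, 0.475 and 0.493 in RPTi, 0.613, 0.559 and 0.671 in RPT and 0.319, 0.267 and 0.360 in RP. The ratio was higher in every thrombin library than in any RP library, and RPTi and RPT overlapped. An exact two-sided permutation test gave p = 0.1 for RPT against RP, p = 0.1 for RPTi against RP and p = 0.2 for RPTi against RPT, where 0.1 is the smallest p that 3 against 3 libraries allow. A ratio of this kind does not depend on library scaling.

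C2, the protease that C1s and the MASP proteases cut to form the C3 convertase, was scarce, with 39, 45 and 37 reads in RPTi, 40, 43 and 40 in RPT and 55, 34 and 39 in RP. That was 1.19 ± 0.229 CPM in RPTi, 1.199 ± 0.144 CPM in RPT and 1.10 ± 0.129 CPM in RP (SD, n = 3 each), and the groups overlapped. The log2 fold change for RPT against RP was 0.12 with a 95% interval of -0.40 to 0.65 (adjusted p = 0.748 by edgeR). These few reads are compatible with any change within those bounds. For RPTi against RPT the interval was -0.54 to 0.52.

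Masp1 had 32.3, 30.8 and 29.0 CPM in RPTi, 28.3, 26.9 and 27.5 CPM in RPT and 52.8, 47.3 and 50.9 CPM in RP. Every library with thrombin was below every RP library. Masp1 changed by a log2 fold change of -0.87 (SE 0.07, adjusted p = 2.26e-06 by edgeR) for RPT against RP and -0.71 (SE 0.07, adjusted p = 1.42e-05 by edgeR) for RPTi against RP. RPTi against RPT did not pass (log2 fold change 0.15, SE 0.07, adjusted p = 0.109 by edgeR), although its libraries lay just above those of RPT. In GRCr8 the Masp1 locus overlaps Rtp4, that of Clu overlaps Scara3, that of C2 overlaps Zbtb12 and that of C1r overlaps an uncharacterised locus. The strand setting of the counting is not given, so reads of overlapping genes cannot be told apart.

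Among the soluble regulators, Clu (clusterin, a chaperone that also blocks the terminal pore) had the highest level per length of the members. It had 98.1, 95.8 and 98.6 CPM in RPTi, 83.2, 90.4 and 81.3 CPM in RPT and 91.0, 90.8 and 85.6 CPM in RP. The RPTi libraries were the highest and the other groups overlapped. RPTi against RPT passed with a log2 fold change of 0.20 (SE 0.06, adjusted p = 0.0195 by edgeR), and RPT against RP did not (-0.07, SE 0.06, adjusted p = 0.438). The call for RPTi against RPT was lost without RPT replicate 1 (0.18, adjusted p = 0.0773 by edgeR), RPTi replicate 1 (0.19, adjusted p = 0.0639) or RPTi replicate 3 (0.19, adjusted p = 0.0648), with library totals alone (0.13, adjusted p = 0.0966), and in limma on log2(FPKM + 1) (0.13, adjusted p = 0.0663) and on log2(FPKM + 0.1) (0.13, adjusted p = 0.0706).

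Serping1 encodes the C1 inhibitor, which blocks C1r, C1s and the MASP proteases. It had 5.37, 4.30 and 4.69 CPM in RPTi, 3.27, 3.22 and 2.96 CPM in RPT and 3.08, 3.04 and 2.72 CPM in RP. The RPTi libraries stood above both other groups, which overlapped each other. The log2 fold change was 0.60 (SE 0.15, adjusted p = 0.00562 by edgeR) for RPTi against RPT and 0.70 (SE 0.15, adjusted p = 0.00436 by edgeR) for RPTi against RP. For RPT against RP it was 0.10 with a 95% interval of -0.23 to 0.42.

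Cd55, the membrane regulator that takes apart the C3 convertase, had 6.82, 5.85 and 6.81 CPM in RPTi, 8.21, 7.52 and 7.04 CPM in RPT and 3.69, 2.95 and 5.42 CPM in RP. RP replicate 3 stood above its group but below every library with thrombin. The log2 fold change was 0.92 (SE 0.19, adjusted p = 0.00262 by edgeR) for RPT against RP, 0.69 (SE 0.19, adjusted p = 0.0168 by edgeR) for RPTi against RP and -0.23 (SE 0.18, adjusted p = 0.348 by edgeR) for RPTi against RPT. The call for RPTi against RP was lost without RP replicate 1 (0.63, adjusted p = 0.0662 by edgeR), RP replicate 2 (0.51, adjusted p = 0.0556), RPTi replicate 1 (0.65, adjusted p = 0.0656) or RPTi replicate 3 (0.65, adjusted p = 0.058).

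Cd59, the membrane regulator that stops assembly of the pore, had 19.3, 20.1 and 17.9 CPM in RPTi, 13.0, 13.1 and 16.3 CPM in RPT and 16.6, 15.01 and 15.4 CPM in RP. RPT replicate 3 lay within the RP range, and the other RPT libraries were the lowest of all. RPTi against RPT passed (log2 fold change 0.43, SE 0.10, adjusted p = 0.00398 by edgeR), RPT against RP did not (-0.15, SE 0.10, adjusted p = 0.306), and RPTi against RP narrowly missed the threshold (0.28, SE 0.10, adjusted p = 0.0562). The last passed the test without RPT replicate 3 (0.28, adjusted p = 0.0169 by edgeR), in DESeq2 (0.29, adjusted p = 0.0448), in a fit of those 2 groups alone (0.28, adjusted p = 0.0241) and with a replicate block (0.28, adjusted p = 0.0485).

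**Figure D2:**
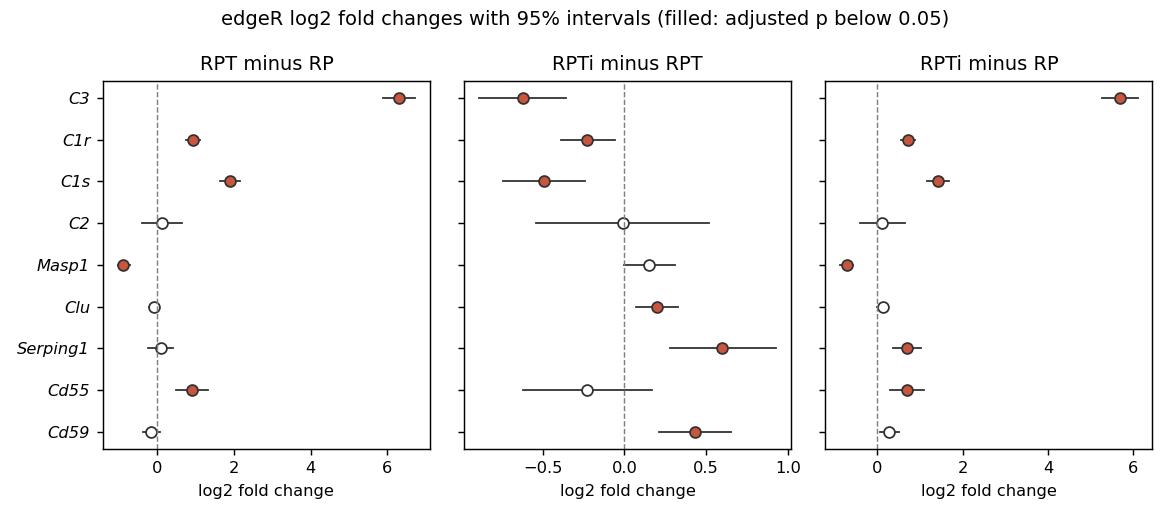
Log2 fold changes (x axis) of the 9 members in each comparison, with 95% intervals as lines and filled points where the adjusted p was below 0.05. C3 lies at 6.30 for RPT against RP and at 5.68 for RPTi against RP, while Serping1, Cd59 and Clu are to the right of 0 for RPTi against RPT.

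One test over the 3 groups found a difference for 8 of the 9 members, against 46.7% of all tested genes, with C2 the exception (adjusted p = 0.882 by edgeR). Clu was the weakest of the 8 (adjusted p = 0.0431 by edgeR) and dropped out, leaving 7, when any 1 library other than RPT replicate 2 was left out, with library totals alone and with no filter on low counts. Ranges of the 3 libraries did not overlap between RPTi and RPT for 8 of 9 members, against 50.8% of all tested genes, and between RPT and RP for 5 of 9, against 40.4%. Between RPTi and RP 8 of 9 did not overlap, against 43.9%.

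Levels were compared between genes per length, in the authors' FPKM. Clu was the most abundant member in each group, at 50.5 ± 0.912 FPKM in RPTi, 46.2 ± 2.45 FPKM in RPT and 47.9 ± 1.31 FPKM in RP (SD, n = 3 each). In RP it was followed by Masp1 (17.7 ± 1.04 FPKM), C1r (15.2 ± 0.322), Cd59 (10.6 ± 0.569) and C1s (4.79 ± 0.688), and then by Serping1 and Cd55, whose ranges overlapped, C2, and C3 in last place (0.0719 ± 0.0146). In RPT the order was Clu, C1r (29.6 ± 0.850 FPKM), C1s (18.2 ± 1.87), Masp1 and Cd59, which overlapped, C3 (5.71 ± 0.645), Cd55, Serping1 and C2. C3 thus moved past Cd55, Serping1 and C2, and C1s past Cd59 and Masp1. In RPTi the order was Clu, C1r (24.1 ± 2.71 FPKM), Cd59, C1s and Masp1, of which neighbours overlapped, then C3 (3.53 ± 0.610), Serping1, Cd55 and C2. Serping1 was ahead of Cd55 in RPTi and behind it in RPT, in both cases without overlap.

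**Figure D3:**
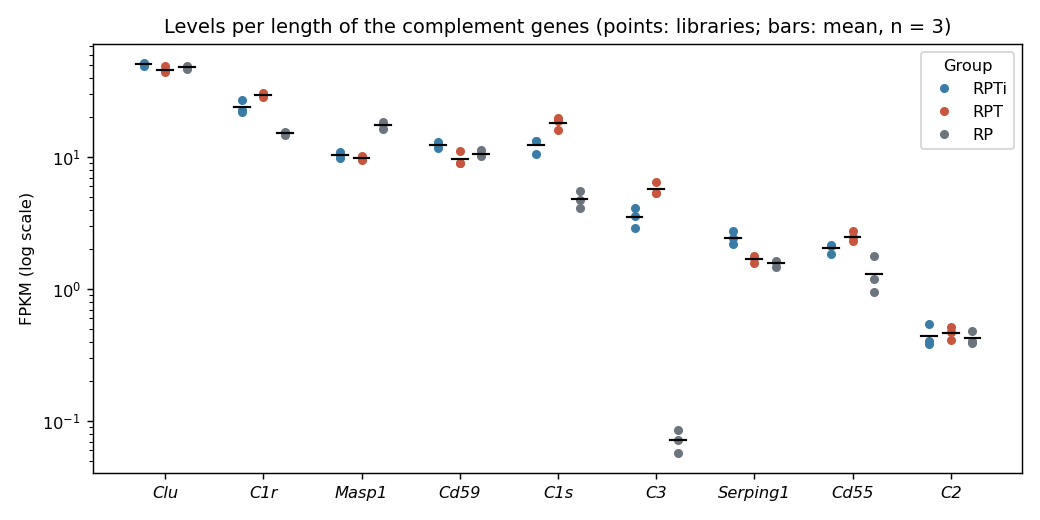
FPKM (log scale) of the 9 members in RPTi, RPT and RP, with a point per library and a bar for the mean (n = 3). C3 spans from below 0.1 FPKM in RP to more than 5 FPKM in RPT, and Clu lies between 43.95 FPKM (RPT) and 51.3 FPKM (RPTi).

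The genes nearest to a member in both log2 fold changes against RP were sought among 9339 tested genes with a symbol other than a locus or clone name and a mean of at least 5 CPM, by Euclidean distance over those 2 values on the log2 scale. Tested genes below 5 CPM or with a locus or clone name were not candidates. By log2 fold change C3 ranked 4 (RPT against RP) and 3 (RPTi against RP) from the top, so some tested genes rose more. Among the candidates C3 had no close neighbour. The nearest were Chi3l1 at a distance of 3.56 (log2 fold change 4.81 for RPT against RP and 2.45 for RPTi against RP), Pla2g2a at 3.74 (4.06 and 2.69), Lcn2 at 3.94 (3.98 and 2.49), Slpi at 4.74 (2.87 and 2.41) and Prg4 at 4.88 (3.80 and 1.49). C1r and Cd55 were each other's nearest gene, at a distance of 0.03. That is below the SE of their fold changes (0.08 for C1r and 0.19 for Cd55), so the order of near neighbours is not resolved. The nearest to C1s was Rnd1 at 0.25, and the nearest to Masp1 was St6galnac2 at 0.05, followed by Dab2 at 0.10. Serping1 was nearest to Cox4i2, at 0.02, also below the SE of its fold changes (0.15). C2, Clu and Cd59, with little change, each had neighbours within 0.01.

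Of 47 symbols sought for other complement genes, 39 were in the table and 18 passed the filter. Cd59b, among the symbols not found, corresponds to the row of the member Cd59. Thrombin raised 2 of the 18 and lowered 4, with a median log2 fold change of -0.14. RPTi against RPT gave 2 rising and 6 falling, with a median of -0.24. These shares were 33.3% and 44.4%, against 28.9% and 41.5% of all tested genes. RPTi against RP also gave 2 rising and 6 falling, or 44.4% against 24.2% of all tested genes, with a median of -0.37. Among components downstream of C3, C5 had 13 counts over all 9 libraries, C6 had 45, C7 had 58 and C8a and C8b had 2 and 25, all below the filter. C8g and C9 passed it, with 1.71 and 0.509 CPM on average, and neither was called in any comparison. Of the C4 genes, C4a was below the filter, and C4b passed it with a mean of 0.508 CPM and 162 counts over all 9 libraries. C4b rose in RPTi against RPT (log2 fold change 1.28, SE 0.44, adjusted p = 0.0318 by edgeR) and was not called in the other comparisons. Receptors for the C3 and C5 fragments, C3ar1 and C5ar1, had 3 and 23 counts over all 9 libraries.

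Cr1l, the rodent membrane regulator also called Crry, averaged 57.4 ± 0.519 CPM in RPTi, 79.1 ± 11.2 CPM in RPT and 74.5 ± 3.94 CPM in RP, and fell in RPTi against RPT (-0.46, SE 0.09, adjusted p = 0.00115 by edgeR). C1qtnf6, a C1q-related secreted protein, fell with thrombin (-1.04, SE 0.07, adjusted p = 5.99e-07 by edgeR) and rose in RPTi against RPT (1.53, SE 0.07, adjusted p = 6.71e-09). The scavenger lectin Colec12 fell in RPTi against RPT (-0.43, SE 0.12, adjusted p = 0.00914 by edgeR). Its fall with thrombin (-0.34, adjusted p = 0.0405) was lost without RP replicate 1 or 3, RPT replicate 1 or 2, or RPTi replicate 1 or 2, with values of -0.34 to -0.23 and adjusted p of 0.051 to 0.157 by edgeR. It was also lost with library totals alone (-0.32, adjusted p = 0.0557), in a fit of those 2 groups alone (-0.33, adjusted p = 0.0673) and in limma on log2(FPKM + 1) (-0.30, adjusted p = 0.0834) and log2(FPKM + 0.1) (-0.31, adjusted p = 0.0789). C1qbp rose slightly with thrombin (0.20, adjusted p = 0.0259 by edgeR), a call lost without any single RP library other than replicate 2, without RPT replicate 1 or 2 (0.14 to 0.21), or in a fit of those 2 groups alone (0.21, adjusted p = 0.0521). C1rl, a C1r-like protease, and the C5a receptor gene C5ar2 passed in no comparison, and the integrin gene Itgax fell in RPTi against RPT (-0.79, SE 0.17, adjusted p = 0.00207 by edgeR).

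**Figure D4:**
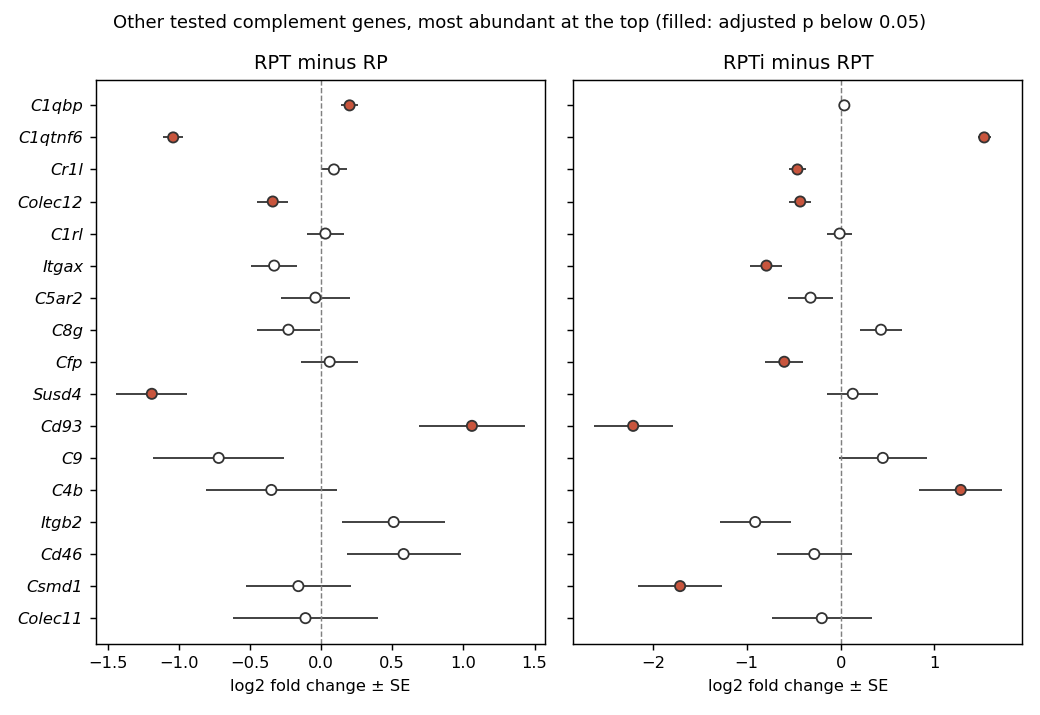
Log2 fold changes ± SE (x axis) of tested complement genes outside the 9 members, for RPT against RP and RPTi against RPT, ordered by mean CPM. Filled points have an adjusted p below 0.05, and C1qtnf6 lies at -1.04 for RPT against RP and at 1.53 for RPTi against RPT.

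Of 16 tested genes for cytokine signals and transcription factors known to act on complement genes, thrombin raised 8 and lowered 2, or 62.5% against 28.9% of all tested genes. In RPTi against RPT 1 rose and 7 fell, or 50% against 41.5%, and in RPTi against RP 1 rose and 2 fell, or 18.8% against 24.2%. Cebpb, a C/EBP factor of the acute-phase response, had 29.4 ± 3.71 CPM in RPTi, 50.7 ± 8.06 CPM in RPT and 35.3 ± 3.54 CPM in RP (SD, n = 3 each). It rose with thrombin (log2 fold change 0.53, SE 0.12, adjusted p = 0.00684 by edgeR) and fell in RPTi against RPT (-0.79, SE 0.12, adjusted p = 0.000248). Its relative Cebpd rose with thrombin (0.59, SE 0.10, adjusted p = 0.00107 by edgeR), and its fall in RPTi against RPT (-0.30, adjusted p = 0.0351) was lost without RPT replicate 1 or 2 or without RPTi replicate 1 or 3 (-0.27 to -0.25). Nfkb1, which encodes an NF-kB subunit, rose with thrombin (0.24, SE 0.07, adjusted p = 0.0176 by edgeR), a call lost without RP replicate 1 (0.23, adjusted p = 0.0641), and fell in RPTi against RPT (-0.30, SE 0.07, adjusted p = 0.00273). The interferon-responsive factor Irf1 fell with thrombin (-0.43, SE 0.08, adjusted p = 0.00208 by edgeR). Stat3 passed in no comparison, at 255 ± 6.43 CPM in RPTi, 258 ± 3.05 CPM in RPT and 267 ± 3.19 CPM in RP. These are RNA levels, and the activity of the Stat3 protein was not measured.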

How the data were processed

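Poly-A RNA libraries were sequenced as paired reads of 150 bp, per the labels' protocols. The authors deposited whole-number read counts per Ensembl gene, on the build Rnor_6.0 per the submitters' processing notes, which also name HISAT2, HTSeq 0.11.2 and DESeq2 1.26.0 without roles. Not given in the sources used here: the annotation release and the strand setting. The authors also deposited FPKM values, and each followed from count, 1 gene length and library total (relative tolerance 1e-06, 18924 of 18924 genes).

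Genes were kept by filterByExpr (minimum count 10), which left 13856 genes and removed 0.026% of counts. One quasi-likelihood model in edgeR 4.0.16 (R 4.3.3, TMM scaling) was fitted to all 9 libraries with a coefficient per group, and p-values were adjusted (Benjamini-Hochberg) over all tested genes, with a threshold of 0.05. SE and 95% intervals come from the fold change, its F statistic and the fit's degrees of freedom. The scripts were tested on simulated data. Alternatives used other scalings and filters, DESeq2 1.42.0, limma 3.58.1 on log2(FPKM + 1) and log2(FPKM + 0.1), fits of 2 groups, a replicate block, and each library left out.

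The members and lists were chosen with earlier results of these data known. Named genes were all members, other complement genes of at least 5 CPM with the next 2, genes nearest to each member, and, of the genes for signals, transcription factors called in RPT against RP or RPTi against RPT, together with Stat3. Limiting that last group to transcription factors was decided after its values were seen. Some genes that these rules name are not reported here.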

Additional observations from a re-analysis of the deposited data

How the results depend on the processing

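Over 18 alternative settings, 463 of 486 log2 fold changes of the 9 members kept their direction and their side of the threshold, 13 lost a call, 5 gained one and 5 changed sign. The sign changes all belonged to C2, which was never called: with single libraries left out its log2 fold change ranged from -0.175 to 0.08 for RPTi against RPT and from -0.054 to 0.216 for RPTi against RP. The number of members called stayed at 5 to 6 for RPT against RP, 4 to 6 for RPTi against RPT and 5 to 7 for RPTi against RP. Of the other named genes, sign changes came only from genes not called in that comparison. C1qbp in RPTi against RPT was -0.032 with library totals alone and in limma on either FPKM scale. C1rl in RPTi against RP was -0.028 with library totals alone, -0.022 on log2(FPKM + 1) and -0.03 on log2(FPKM + 0.1). With single libraries left out, C1rl ranged from -0.084 to 0.052 for RPTi against RPT, from -0.027 to 0.108 for RPT against RP and from -0.027 to 0.078 for RPTi against RP. On the same basis C5ar2 in RPT against RP ranged from -0.185 to 0.156, Cr1l in RPT against RP from -0.031 to 0.165 and Stat3 in RPTi against RPT from -0.035 to 0.001. The causes were not tested.

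With a replicate block, 5, 6 and 7 members were called for RPT against RP, RPTi against RPT and RPTi against RP, the addition being Cd59 in the last (log2 fold change 0.28, adjusted p = 0.0485 by edgeR), and all genes called numbered 5074, 6698 and 4689 against 3999, 5745 and 3352. Same-numbered libraries of different groups had deviations correlated at -0.114 to 0.124, and different-numbered ones at -0.161 to 0.143. Replicates 2 and 3 were positive with their own number (0.022 to 0.124) and negative with each other (-0.161 to -0.064). Replicate 1 was negative with its own number (-0.114 to -0.034). The labels state no pairing, so the main model had none, and these values do not settle whether the numbers pair the libraries. Depth limits C2 in every group and C3 in RP. The pseudocount sets the size of the C3 change: 2.64 for RPT against RP and 2.07 for RPTi against RP on log2(FPKM + 1).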
